A study of Mus musculus with 9 samples.

Results

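Granzymes and perforin are the proteins that a cytotoxic T cell stores in its granules and releases onto a target cell. The mRNA of 10 of their genes (Gzma, Gzmb, Gzmc, Gzmd, Gzme, Gzmf, Gzmg, Gzmk, Gzmn and Prf1) is described here, out of 20418 gene symbols measured. The genes were taken by symbol, and each has 1 RefSeq transcript in the tables. They were read in 9 RNA-seq libraries of splenic CD8+ T cells. The mice were C57BL/6 females aged 6 weeks, and the labels name no genetic change. In 1 library the cells were untreated. The other 8 cover every combination of the cytokines interleukin-2 (IL-2) and interleukin-15 (abbreviated IL-15), 1 or 500 nM, and 4 or 24 h. Every library came from the RNA of 3 alike samples that were pooled, so each condition has a single library, and the tests take their spread from the factorial layout. P-values therefore measure only the spread between these libraries, part of which may be technical. That spread is what each fit leaves unexplained, so the tests assume that combined effects of factors left out (interactions) are small. The dose by time interaction was called for 8.81% of all genes, and the main dose test leaves that term out. The untreated library carries no time label, so the effect of a cytokine and that of time in culture cannot be told apart in comparisons with it.

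Perforin, the product of Prf1, forms pores in the membrane of the target cell and lets granzymes, which are serine proteases, reach its cytosol. Granzyme B cuts after aspartate and activates caspases, while granzyme A and granzyme K cut after basic residues. In the mouse, Gzmb lies in a group of related genes on chromosome 14 with Gzmc, Gzmd, Gzme, Gzmf, Gzmg and Gzmn, whose products are less well understood, and Gzma and Gzmk lie next to each other on chromosome 13. IL-2 and IL-15 share the beta and gamma chains of their receptors and signal to STAT5, and both are known to induce granzyme B in CD8+ T cells. Resting CD8+ T cells with a memory phenotype are known to hold perforin and granzyme mRNA before stimulation.

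Counts summed to between 27158143 and 48799962 per library, with 1 transcript per gene, and the 10 genes took between 0.00648% (IL-2, 1 nM, 4 h) and 0.380% (IL-2, 500 nM, 24 h) of them. A count of 0 was given a limit of 3 counts, which is 0.0594 CPM (counts scaled to library size by the TMM method) in the deepest and 0.113 CPM in the shallowest library. The 95% Poisson interval for 0 counts reaches 0.119 CPM in the untreated library, so folds against the limit are not 95% bounds. All intervals and limits given here are for counting error alone, since amplified reads that carry no molecular identifier are not independent molecules. The CD8 T cell markers (6 of 7 measured) summed to between 2578 and 4202 CPM, so the labelled cell type was present in every library. Other spleen cells were present too. Among their lists, B cell markers (6 of 6 measured) had the largest sum in every library, with 601 CPM in the untreated one. The 1 nM libraries held 433 to 634 CPM of B cell markers, while the 500 nM libraries held 185 to 326 CPM. CD4 T cell markers (4 of 4 measured) stayed within 22.4 to 40.9 CPM in all libraries. NK cell markers (9 of 9 measured) summed to 187 CPM in the untreated library, to 52.3 to 81.6 CPM in the 1 nM libraries and to 17.3 to 34.6 CPM in the 500 nM libraries. Tyrobp and Fcer1g, which myeloid cells also express, made up nearly all of that sum, with 94.7 and 88.4 CPM in the untreated library. Ncr1, which defines NK cells, lay between 0 and 0.594 CPM, and Itga2 was at 0 in all libraries. Klra4, Klra8 and Klra9 lay between 0 and 0.793 CPM, and Klrb1c between 0.0606 and 3.19 CPM, with 2.91 CPM untreated. Klre1 did not follow the sum: it was at 0.161 CPM untreated and at 0.495 to 2.14 CPM in treated libraries. Myeloid markers (6 of 7 measured) summed to 465 CPM in the untreated library, with 90.8 to 349 CPM in the 1 nM libraries and 13.4 to 67.5 CPM in the 500 nM libraries. In bulk RNA, fewer cells of a type and less RNA per cell cannot be told apart.

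The promoters of Gzmc, Gzmd, Gzme, Gzmf and Gzmg are shown first, since these genes carry similar copies of the same sequence yet differed widely in their mRNA level. The stretch below is 127 bases long, was aligned without gaps, and is printed 5′ to 3′ along each gene from RefSeq promoters (GRCm38.p6). It reaches at most 12 bases past the annotated start. Capitals mark the letters of a Runx site (TGTGGT) or a T-box site (AGGTGT, here on the other strand as ACACCT).
Gzmc (chr14:56234646-56234772, minus strand): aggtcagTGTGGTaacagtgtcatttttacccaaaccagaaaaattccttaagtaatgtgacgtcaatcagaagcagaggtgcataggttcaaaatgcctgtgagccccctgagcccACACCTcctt
Gzmd (chr14:56132586-56132712, minus strand): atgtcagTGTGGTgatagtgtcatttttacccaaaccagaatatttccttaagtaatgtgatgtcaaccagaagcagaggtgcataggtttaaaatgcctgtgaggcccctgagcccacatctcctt
Gzme (chr14:56120619-56120745, minus strand): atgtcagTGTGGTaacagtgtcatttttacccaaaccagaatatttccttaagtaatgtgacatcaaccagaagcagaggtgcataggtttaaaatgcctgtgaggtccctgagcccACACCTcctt
Gzmf (chr14:56211421-56211547, minus strand): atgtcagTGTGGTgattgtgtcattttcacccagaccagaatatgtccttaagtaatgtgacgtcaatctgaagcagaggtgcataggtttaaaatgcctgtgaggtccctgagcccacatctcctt
Gzmg (chr14:56159588-56159714, minus strand): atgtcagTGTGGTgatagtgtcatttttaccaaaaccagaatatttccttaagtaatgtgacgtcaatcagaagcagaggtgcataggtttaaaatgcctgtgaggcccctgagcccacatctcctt
Over this stretch the other 4 genes matched Gzmc at between 89.0% (Gzmf) and 93.7% (Gzme) of bases. Over the whole 300-base promoters the 5 genes were 86.1% to 94.0% identical in pairs, so their motif matches are not independent. The promoters of Gzmb and Gzmn could not be aligned with them over 100 bases or more.

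The 250 bases before the start of Gzmb, Gzmk and Prf1 are printed because these 3 genes followed different courses under cytokine. Here capitals mark Runx (TGTGGT), AP-1 (TGANTCA) and T-box (AGGTGT) letters on either strand.
Gzmb (chr14:56262335-56262584, minus strand): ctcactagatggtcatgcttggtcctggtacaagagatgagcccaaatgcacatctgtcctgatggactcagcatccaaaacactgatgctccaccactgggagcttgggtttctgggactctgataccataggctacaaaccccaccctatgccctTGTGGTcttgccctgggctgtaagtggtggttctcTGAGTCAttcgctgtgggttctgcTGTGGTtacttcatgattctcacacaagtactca
Gzmk (chr13:113180966-113181215, minus strand): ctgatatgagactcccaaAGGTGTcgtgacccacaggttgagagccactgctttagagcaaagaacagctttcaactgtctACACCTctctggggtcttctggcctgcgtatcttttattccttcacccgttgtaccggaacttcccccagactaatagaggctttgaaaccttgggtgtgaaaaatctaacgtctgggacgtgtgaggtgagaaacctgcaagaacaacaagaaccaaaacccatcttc
Prf1 (chr10:61297586-61297835, plus strand): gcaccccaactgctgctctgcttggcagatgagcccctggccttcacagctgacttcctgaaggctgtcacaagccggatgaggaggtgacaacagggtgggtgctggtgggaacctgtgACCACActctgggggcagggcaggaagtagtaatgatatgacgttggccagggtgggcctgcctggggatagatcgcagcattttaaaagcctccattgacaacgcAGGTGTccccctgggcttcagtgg
In the 300-base windows, which also hold the first 50 transcribed bases, Runx letters were found in 8 of the 10 members (not in Gzmk or Gzmn), against 16.8% of 32851 mouse promoters of the same length. T-box letters were found in Gzma, Gzmc, Gzme, Gzmk and Prf1, and in 13.7% of all promoters. Gzmb alone held STAT letters (TTCNNNGAA, at base 38 of the transcript) and AP-1 letters, which 8.30% and 7.81% of all promoters hold. The motifs do not overlap each other in the printed sequences. A match of letters is a description and no evidence of binding.

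Gzmb, which encodes granzyme B (NM_013542, chromosome 14, minus strand, mm8), was the member whose mRNA rose most in absolute terms. It measured 8.88 CPM (275 counts) in the untreated library. The IL-2 libraries held 13.3 CPM at 1 nM for 4 h, 351 CPM at 1 nM for 24 h, 934 CPM at 500 nM for 4 h, and 3683 CPM (129983 counts) at 500 nM for 24 h. The matching IL-15 libraries held 18.3, 31.0, 1409 and 3490 CPM. All 4 libraries at 500 nM lay above all 4 at 1 nM, the untreated library was lowest, and no library's 95% Poisson interval overlapped that of its neighbour in the order. Ranked by RPKM, a level per exon length, Gzmb stood at place 6264 among all genes in the untreated library. It stood at place 33 in both 500 nM, 24 h libraries.

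**Figure D1:**
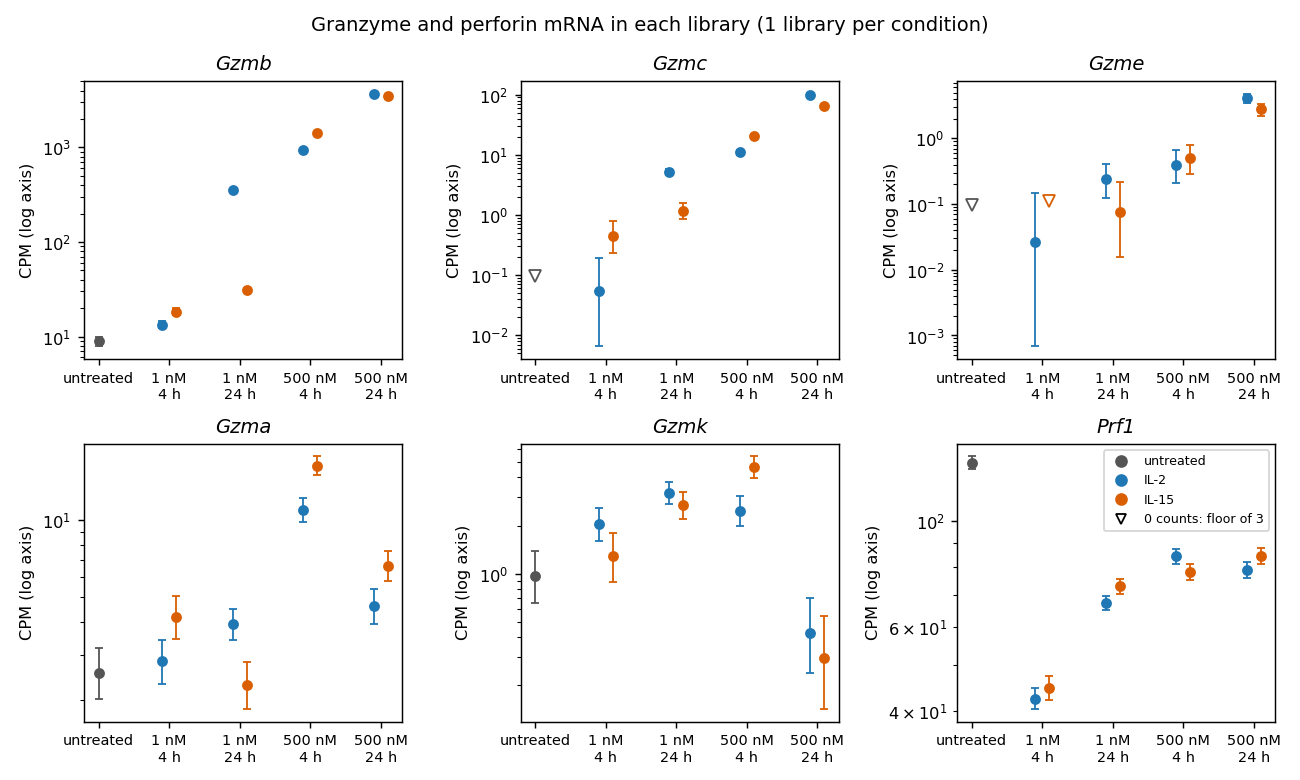
Level of 6 genes in each library in CPM (log axes) against dose and time, with IL-2 in blue, IL-15 in orange and the untreated library in grey. Bars are 95% Poisson intervals and open triangles mark libraries with 0 counts at the limit of 3 counts. Gzmb runs from 8.88 CPM untreated to 3683 CPM, Gzmk is lowest at 500 nM for 24 h, and Prf1 is highest in the untreated library.

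Raising the dose from 1 to 500 nM raised Gzmb by 5.38 ± 0.76 (log2, SE; adjusted p = 0.00315) over both cytokines and times. Every SE given here was derived from the F statistic of its test and is approximate. At 4 h alone the dose effect was 6.23 ± 0.83 (adjusted p = 0.000553), and the libraries of the 2 doses differed 70.1-fold with IL-2 and 76.8-fold with IL-15. At 24 h it was 4.43 ± 0.78 (adjusted p = 0.00109), with a ratio of 10.5 for IL-2 and 112 for IL-15. The IL-2 library at 1 nM for 24 h held 351 CPM against 31.0 CPM for IL-15. Without that IL-2 library the dose effect on Gzmb was 6.50 over both times (adjusted p = 0.000151) and 7.03 at 24 h (adjusted p = 1.05e-06). Without the IL-15 library at 1 nM for 24 h, the effect at 24 h was 3.23 (adjusted p = 5.2e-05). At 4 h it was 6.82 without IL-2 at 500 nM, 7.02 without IL-15 at 1 nM and 5.30 without IL-15 at 500 nM. The call held without each library in turn in all of these comparisons.

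Of the 9 members with enough reads to be tested, 5 were higher at 500 nM (Gzma, Gzmb, Gzmc, Gzme and Gzmg) and none was lower, where 16.1% of all 13479 genes were called (7.63% higher and 8.47% lower). The members' median dose effect was 4.78, against -0.03 over all genes. Gzmd, Gzme, Gzmf and Gzmg passed the filter on low counts mainly through the 500 nM libraries, so this count and this median describe the members and support nothing further. Without overlap between the doses, 6 of the 10 members were higher in all 4 libraries at 500 nM (the 5 above and Prf1), as were 8.55% of all genes (10.3% were lower without overlap). The dose effect was tested at 4 h and 24 h too. At 4 h, 4 members were higher (Gzma, Gzmb, Gzmc and Prf1) where 10.1% of genes were called (5.42% higher, 4.63% lower). At 24 h, 3 were higher (Gzmb, Gzmc and Gzme) and Gzmk was lower, where 31.2% were called (15.6% in each direction). The count without overlap and the Gzme call at 24 h carry the same limit from the filter.

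**Figure D2:**
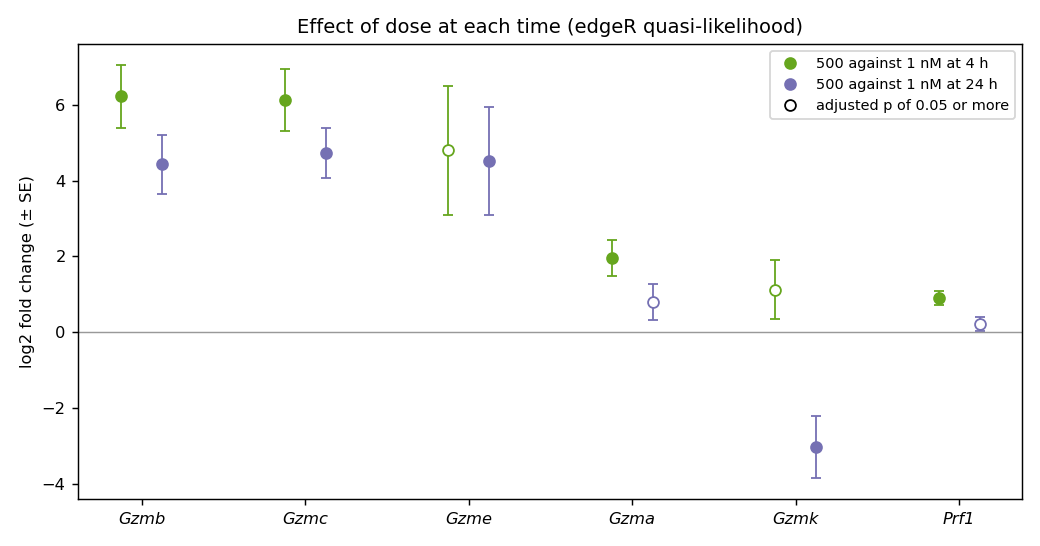
Log2 fold change from 1 to 500 nM (± SE, edgeR) at 4 h (green) and at 24 h (purple) for 6 genes. Filled points have an adjusted p under 0.05 and open points do not. Gzmb and Gzmc lie between 4.43 and 6.23 at both times, while Gzmk goes from 1.12 ± 0.77 at 4 h to -3.02 ± 0.83 at 24 h.

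Gzmc, which encodes granzyme C (NM_010371, chromosome 14, minus strand), had 0 counts in the untreated library. With IL-2 it had 2 counts at 1 nM for 4 h, 263 at 1 nM for 24 h, 362 at 500 nM for 4 h, and 3553 at 500 nM for 24 h. With IL-15 the same conditions held 12, 47, 706 and 2206 counts, so the libraries fell in the order seen for Gzmb and the doses did not overlap. In CPM, Gzmc ranged from 0.0538 (IL-2, 1 nM, 4 h) to 101 (IL-2, 500 nM, 24 h) in treated cells. Dose raised it by 5.23 ± 0.65 (adjusted p = 0.00192) over both times, by 6.13 ± 0.81 at 4 h and by 4.73 ± 0.66 at 24 h, with the call kept without each library in turn. The effect was 6.26 over both times and 6.37 at 24 h without IL-2 at 1 nM for 24 h, and 3.89 at 24 h without IL-15 at 1 nM. At 4 h it ran from 4.94 without IL-2 at 1 nM to 8.47 without IL-15 at 1 nM, with 6.91 without IL-2 at 500 nM and 5.15 without IL-15 at 500 nM. In the 500 nM, 24 h libraries Gzmc was at least 1039-fold (IL-2) and 676-fold (IL-15) higher than the limit that the untreated library allows.

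The other genes of the group were detected at low counts, most of them at 500 nM for 24 h. Gzme had 0 counts untreated, 1, 12, 13 and 144 with IL-2 (1 nM at 4 and 24 h, then 500 nM at 4 and 24 h) and 0, 3, 17 and 93 with IL-15. Gzmg had 0 counts untreated, 0, 10, 10 and 95 with IL-2 and 0, 1, 14 and 71 with IL-15. In both genes the 500 nM, 24 h libraries stood above all others, and the 2 doses did not overlap in CPM. The dose effect was 4.62 ± 0.97 for Gzme (adjusted p = 0.0149) and 5.07 ± 1.25 for Gzmg (adjusted p = 0.0275). Gzme held 267 of its 283 counts at 500 nM, and Gzmg 190 of its 201, so both passed the filter mainly through that dose. Their dose tests therefore describe these genes and support nothing further. The call for Gzme was lost without IL-2 at 500 nM for 24 h (adjusted p = 0.0982), IL-15 at 500 nM for 24 h (0.0583) or IL-15 at 1 nM for 24 h (0.0521). The call for Gzmg was lost without any of the same 3 libraries (adjusted p = 0.113, 0.0927 and 0.0821) or without IL-2 at 1 nM for 4 h (0.0585). Leaving out IL-2 at 1 nM for 24 h moved its effect to 6.46 with the call kept, and leaving out IL-2 at 500 nM for 24 h moved it to 5.68. At 24 h alone the dose effect on Gzme was 4.51 ± 1.42 (adjusted p = 0.0301), a call lost without any of the 4 libraries at 24 h (adjusted p = 0.0828 and 0.253 without IL-2 at 1 and 500 nM, 0.162 and 0.178 without IL-15).

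Gzmd had 0 counts untreated, 0, 5, 1 and 64 with IL-2 in the same order, and 0, 0, 16 and 33 with IL-15. Gzmf had 0 counts untreated, 0, 1, 0 and 28 with IL-2 and 0, 0, 2 and 7 with IL-15. Both were at most a few counts below 500 nM, and both had their highest values at 500 nM for 24 h. Their dose effects of 5.12 ± 1.8 (adjusted p = 0.0838) and 4.78 ± 2.1 (adjusted p = 0.154) did not pass the threshold. Gzmn had 11 counts in all, 7 of them with IL-2 at 500 nM for 24 h, and was not tested. These transcripts resemble each other: Gzmd and Gzme were 94.8% identical, Gzmd and Gzmg 90.5%, and Gzme and Gzmg 90.8% (GENCODE vM21). Of the 50-base windows of Gzmd, 21.9% occur unchanged in another member, as do 20.6% for Gzme, 19.8% for Gzmg, 7.36% for Gzmf, 6.06% for Gzmn and 4.14% for Gzmc. Gzma, Gzmb, Gzmk and Prf1 share none. How reads with several matches were counted is not given in the sources used here, so the split among Gzmd, Gzme, Gzmf, Gzmg and Gzmn is uncertain.

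Along chromosome 14 the RefSeq order is Mcpt8, Ctsg, Gzme, Gzmd, Gzmg, Gzmn, Gzmf, Gzmc, Gzmb, Atp12a and Rnf17. At 500 nM for 24 h with IL-2, the level was highest at the Gzmb end of the group. It was 1822 RPKM for Gzmb, 75.6 for Gzmc, 0.612 for Gzmf, 0.146 for Gzmn, 2.07 for Gzmg, 1.36 for Gzmd and 3.10 for Gzme. With IL-15 the levels were 1761 RPKM for Gzmb, 50.1 for Gzmc, and 0.0222 (Gzmn) to 2.14 (Gzme) for the other 5. Gzmb thus stood 24.1-fold (IL-2) and 35.1-fold (IL-15) above Gzmc per exon length, and Gzmc stood well above the 5 genes beyond it. The flanking genes stayed at or near 0: Ctsg and Atp12a were at 0 RPKM in all 9 libraries, Mcpt8, a basophil protease, was above 0 in a single library (0.318 RPKM, IL-15, 1 nM, 24 h), and Rnf17 likewise (0.0187 RPKM, IL-15, 1 nM, 4 h). Of 8 chymase and mast cell protease neighbours listed, 1 (Mcpt8) had enough reads to be tested, and it was not called for dose (-3.56 ± 3.08, adjusted p = 0.484). Of 7 basophil and mast cell genes listed, Fcer1a and Ms4a2 were at 0 in all libraries, but others were detected. Kit ran from 4.17 CPM (IL-2, 500 nM, 24 h) to 27.6 CPM (IL-15, 500 nM, 4 h). Hdc ran from 0.453 to 5.25 CPM, and the whole list from 4.62 to 32.8 CPM, with the same lowest and highest libraries.

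**Figure D3:**
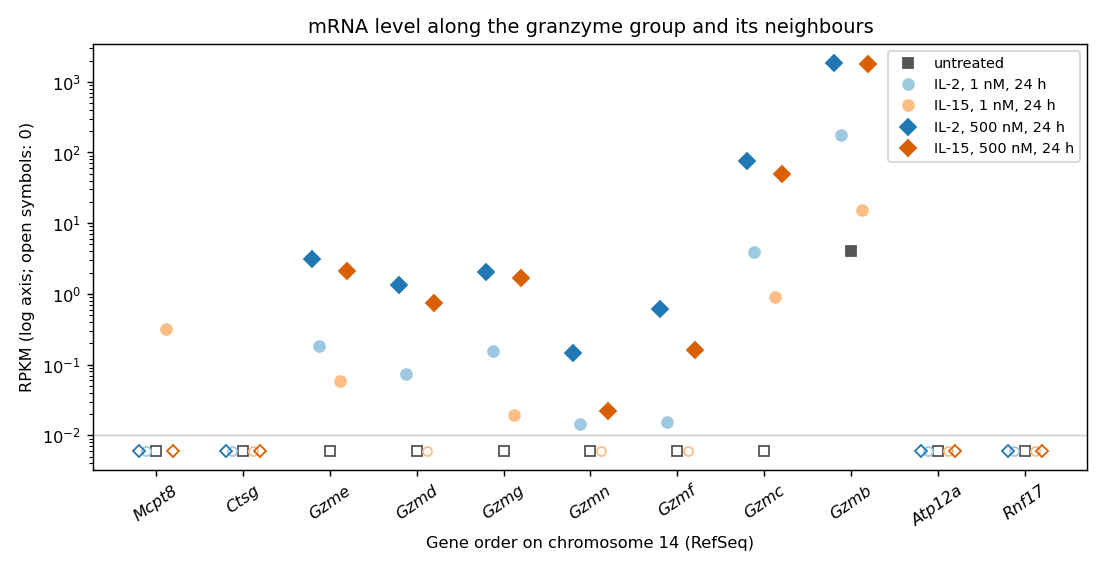
RPKM (log axis, open symbols for 0) of the chromosome 14 granzyme genes and the 2 annotated genes on each side, in their order along the chromosome, in the untreated library and the 24 h libraries. Gzmb is highest at 1822 and 1761 RPKM at 500 nM, Gzmc follows at 75.6 and 50.1 RPKM, and the flanking genes are at 0 in nearly all of these libraries.

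Gzma, which encodes granzyme A (NM_010370, chromosome 13, minus strand), took a different course: its highest levels came at 500 nM for 4 h, not at 24 h. It measured 2.55 CPM untreated. The IL-2 libraries held 2.83 CPM at 1 nM for 4 h, 3.94 at 1 nM for 24 h, 10.9 at 500 nM for 4 h and 4.62 at 500 nM for 24 h, and the IL-15 libraries held 4.19, 2.29, 16.3 and 6.62 CPM. Both 500 nM, 4 h libraries stood above all others, and the 5 lowest-ranked neighbouring pairs of libraries overlapped in their counting intervals. Dose raised Gzma by 1.38 ± 0.40 (adjusted p = 0.0439) over both times, a call kept only without the untreated library or without IL-2 at 1 nM for 24 h. Without each other library the adjusted p ran from 0.0606 (without IL-2 at 500 nM for 24 h) to 0.112 (without IL-2 at 1 nM for 4 h). The remaining values were 0.0872 without IL-2 at 500 nM for 4 h, 0.0999 without IL-15 at 1 nM for 4 h, and 0.109 without IL-15 at 1 nM for 24 h. They were 0.105 and 0.0960 without IL-15 at 500 nM at 4 h and at 24 h.

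At 4 h the dose effect on Gzma was 1.96 ± 0.48 (adjusted p = 0.0208), with a ratio of 3.87 for IL-2 and 3.88 for IL-15. It lost its call without IL-2 at 1 nM (adjusted p = 0.155), IL-15 at 1 nM (0.0907) or IL-15 at 500 nM (0.229). At 24 h it was 0.80 ± 0.47 (adjusted p = 0.232). The difference between the times was not significant (dose by time -1.16 ± 0.66, adjusted p = 0.327). From 4 to 24 h at 500 nM, Gzma changed by -1.27 ± 0.47 (adjusted p = 0.0635).

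Gzmk, which encodes granzyme K (NM_008196, chromosome 13, minus strand), was the only member whose dose by time interaction passed the threshold. It measured 0.969 CPM (30 counts) untreated. The IL-2 libraries held 2.05 CPM at 1 nM for 4 h, 3.21 at 1 nM for 24 h, 2.48 at 500 nM for 4 h and 0.425 (15 counts) at 500 nM for 24 h. The IL-15 libraries held 1.28, 2.69, 4.64 and 0.297 CPM (10 counts). The 500 nM, 24 h libraries were the lowest of the 9, below the untreated library, but neighbours in the order of levels had overlapping counting intervals up to the highest library (IL-15, 500 nM, 4 h). At 24 h Gzmk fell by 3.02 ± 0.83 from 1 to 500 nM (log2, adjusted p = 0.0151), and at 500 nM it fell by 3.32 ± 0.84 from 4 to 24 h (adjusted p = 0.0120). At 4 h dose gave 1.12 ± 0.77 (adjusted p = 0.443). The dose by time interaction was -4.14 ± 1.13 (adjusted p = 0.0405). It was the only member called there, where 8.81% of all genes were (4.06% with a positive and 4.76% with a negative value).

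These calls for Gzmk rest on few reads. The interaction was called without IL-2 at 500 nM for 4 h (-4.79, adjusted p = 0.0458) and without the untreated library. It was lost without any other library, at adjusted p of 0.0701 and 0.111 without IL-2 at 1 nM (4 and 24 h), 0.134 without IL-2 at 500 nM for 24 h, and 0.156 (4 h) and 0.0793 (24 h) when an IL-15 library at 1 nM was left out. Without IL-15 at 500 nM it was -3.41 (0.172) at 4 h and -3.87 (0.195) at 24 h, and it was lost with limma-voom (0.0526). The dose effect at 24 h was lost without any of the 4 libraries at 24 h: adjusted p was 0.0671 and 0.0925 without IL-2 at 1 and 500 nM, and 0.0574 and 0.140 without IL-15. The change over time at 500 nM was lost without IL-2 at 24 h (0.0798), IL-15 at 4 h (-2.56, 0.127) or IL-15 at 24 h (0.134), and was -3.93 without IL-2 at 4 h with the call kept. Gzma and Gzmk share a strand and neighbour each other on chromosome 13. Their RPKM ratio (Gzma over Gzmk) was 2.38 untreated, 0.767 to 2.95 at 1 nM, 3.16 to 3.97 at 500 nM for 4 h, and 9.80 (IL-2) and 20.1 (IL-15) at 500 nM for 24 h. The next genes on either side, Gpx8 and Esm1, were at 0 RPKM in all 9 and 8 of 9 libraries.

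Prf1, which encodes perforin (NM_011073, chromosome 10, plus strand), had its highest level without cytokine, 133 CPM (4108 counts). The IL-2 libraries held 42.5 CPM at 1 nM for 4 h, 67.5 at 1 nM for 24 h, 84.4 at 500 nM for 4 h and 79.0 at 500 nM for 24 h. The matching IL-15 libraries held 44.8, 73.0, 78.2 and 84.5 CPM. All treated libraries lay below the untreated one, the 1 nM, 4 h libraries were lowest, and the 4 libraries at 500 nM overlapped with their neighbours in counting error. Against untreated cells, Prf1 fell by 1.60 ± 0.21 (log2) at 1 nM for 4 h (adjusted p = 0.00139), by 0.70 ± 0.22 at 500 nM for 4 h (adjusted p = 0.0433) and by 0.70 ± 0.22 at 500 nM for 24 h (adjusted p = 0.0319). At 1 nM for 24 h the change was -0.92 ± 0.21 (adjusted p = 0.0561). The first of these calls held without each treated library in turn. The one at 500 nM for 4 h was lost without IL-2 at 500 nM at 4 h (adjusted p = 0.0577) or 24 h (0.104), or IL-15 at 500 nM at 4 h (0.197) or 24 h (0.102). The one at 500 nM for 24 h was lost without either library of that condition (0.219 for IL-2 and 0.184 for IL-15).

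Each of these values rests on a single untreated library. That library also had the highest sums of NK and myeloid markers (187 and 465 CPM), and the part of other cells in the Prf1 level was not tested. At 4 h Prf1 was higher at 500 nM than at 1 nM by 0.90 ± 0.18 (adjusted p = 0.00723). This call was lost without IL-2 at 1 nM for 4 h (adjusted p = 0.0574). At 24 h the dose effect was 0.22 ± 0.18 (adjusted p = 0.403), and over both times 0.56 ± 0.18 (adjusted p = 0.0666). The difference between the times did not pass the threshold (dose by time -0.68 ± 0.26, edgeR, adjusted p = 0.125). From 4 to 24 h at 1 nM, Prf1 changed by 0.69 ± 0.18 (adjusted p = 0.0700).

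The make-up of the granule mRNA shifted from Prf1 to Gzmb. Per exon length, the 10 genes summed to 48.3 RPKM in the untreated library, of which Prf1 made up 86.1% and Gzmb 8.36%. At 1 nM for 4 h the sum was 25.5 RPKM with IL-2 and 26.5 RPKM with IL-15, with Prf1 at 57.5% and 52.4%. At 500 nM for 24 h it was 1936 and 1851 RPKM, with Gzmb at 94.1% and 95.1% and Prf1 at 1.39% and 1.59%. The ratio of Gzmb to Prf1 went from 0.0970 untreated to 67.6 (IL-2) and 59.8 (IL-15) at 500 nM for 24 h. Gzmc, Gzmd, Gzme, Gzmf, Gzmg and Gzmn together made up 0% untreated and at most 4.28% (IL-2, 500 nM, 24 h). At 1 nM for 24 h the cytokines differed most in this respect, with Gzmb at 83.9% of 209 RPKM for IL-2 and 33.8% of 45.8 RPKM for IL-15.

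**Figure D4:**
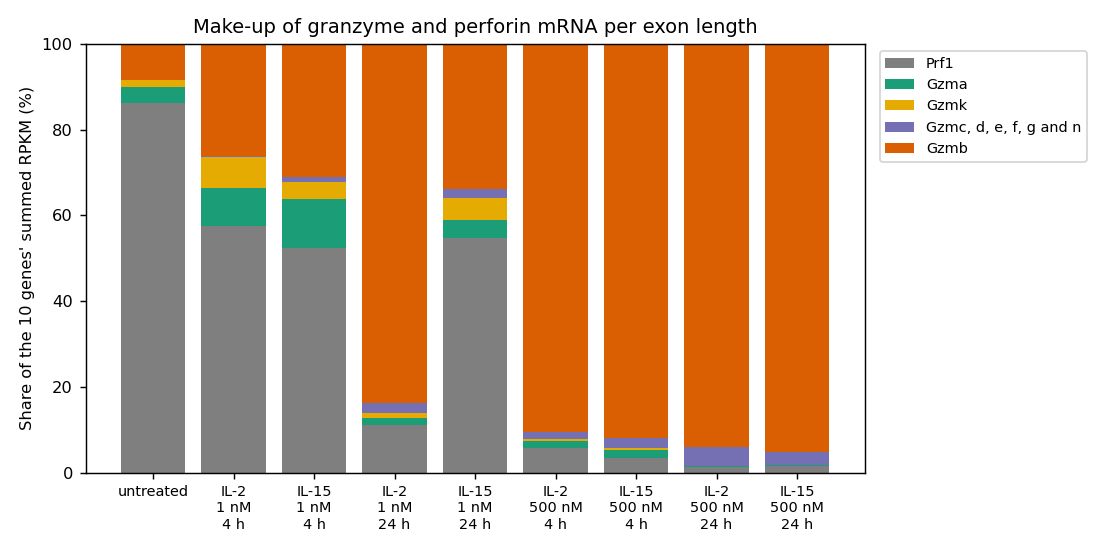
Share (%) of the summed RPKM of the 10 genes held by Prf1, Gzma, Gzmk, the 6 other chromosome 14 genes and Gzmb in each library. Prf1 makes up 86.1% in the untreated library and Gzmb 94.1% and 95.1% at 500 nM for 24 h, and at 1 nM for 24 h the IL-2 bar (83.9% Gzmb) differs from the IL-15 bar (33.8%).

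From 4 to 24 h, over both cytokines and doses, Gzmc was the only member of the 9 tested to rise (2.82 ± 0.62, adjusted p = 0.0394), where 5.3% of all genes were called (2.69% higher, 2.62% lower). The call was lost without IL-2 at 1 nM for 4 h (adjusted p = 0.0765), IL-2 at 500 nM at 4 h (0.156) or 24 h (0.0807), or IL-15 at 500 nM for 24 h (0.0930). Gzmb gave 2.37 ± 0.69 (adjusted p = 0.0767). At 1 nM, Gzmb rose by 3.36 ± 0.77 (adjusted p = 0.0400) and Gzmc by 3.72 ± 0.83 (adjusted p = 0.0346), 2 of 9 members where 2.89% of genes were called (1.51% higher, 1.38% lower). In the matched libraries, Gzmb was 26.3-fold higher at 24 h with IL-2 and 1.69-fold higher with IL-15. Without IL-2 at 1 nM for 24 h the rise of Gzmb was 0.83 (adjusted p = 0.170) and that of Gzmc 2.19 (adjusted p = 0.222). The Gzmb call was also lost without IL-2 at 1 nM for 4 h (2.63, adjusted p = 0.359), IL-15 at 1 nM for 4 h (0.146), IL-2 at 500 nM for 4 h (0.0578) or IL-15 at 500 nM for 4 h (0.0566), and with limma-voom (0.0844). It was 4.65 without IL-15 at 1 nM for 24 h. For Gzmc it was lost without IL-2 at 1 nM for 4 h (2.43, 0.328) or IL-15 at 1 nM for 4 h (5.95, 0.0758), with DESeq2 (0.0646) and with limma-voom (0.127), and was 4.71 without IL-15 at 1 nM for 24 h.

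At 500 nM, Gzmc rose by 2.33 ± 0.59 from 4 to 24 h (adjusted p = 0.0122) and Gzmk fell (above), where 26.3% of genes were called (13.3% higher, 12.9% lower). The matched libraries showed a ratio for Gzmc of 9.18 with IL-2 and 3.18 with IL-15. The call for Gzmc was lost without IL-2 at 500 nM at 4 h (1.56, adjusted p = 0.141) or 24 h (0.0808), with DESeq2 (0.140) and with limma-voom (0.175), and was 3.31 without IL-15 at 500 nM for 4 h. Gzmb gave 1.56 ± 0.67 (adjusted p = 0.112), with ratios of 3.94 and 2.48, on top of levels that were already 934 and 1409 CPM at 4 h.

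IL-15 was compared with IL-2 in the same fit over all doses and times, and edgeR called none of the 9 tested members (0 also at an unadjusted p under 0.05, and 0 with DESeq2 and with limma-voom). Over all 13479 genes the same comparison called 0%, with 125 genes at an unadjusted p under 0.05. The members' values ran from -0.73 ± 0.88 (Gzme) to 0.17 ± 0.39 (Gzma), so differences of the size of their errors cannot be told from 0. The cytokine by time interaction called 0 members as well (0% of all genes). At an unadjusted p under 0.05 it held 2, Gzmb with -2.65 ± 1.00 and Gzmc with -2.73 ± 0.81, both at an adjusted p of 1. The cytokine by dose interaction called 0 members at either threshold (0% of all genes). DESeq2 and limma-voom called 0 members for both interactions.

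Matched libraries were then compared condition by condition, with 1 residual degree of freedom. At 1 nM for 24 h, Gzmb was lower with IL-15 (log2 difference -2.68 ± 0.43, adjusted p = 0.00495), the only member called where 0.438% of all genes were (0.0148% higher, 0.423% lower). The counts were 1233 with IL-15 and 17715 with IL-2, a ratio of 0.0885 (95% interval 0.0834 to 0.0937). The fit has no term for all 3 factors at once, and its estimates for Gzmb missed the ratio of the libraries by more than their SE in all 4 conditions. Fitted and observed log2 differences were -2.68 ± 0.43 and -3.50 at 1 nM for 24 h, and -0.41 ± 0.41 and 0.46 at 1 nM for 4 h, where the sign differed. They were 1.40 ± 0.39 and 0.59 at 500 nM for 4 h, and -0.88 ± 0.39 and -0.08 at 500 nM for 24 h. The tests of single conditions are therefore weak evidence in either direction for this gene. Gzmc had 47 and 263 counts in the same libraries (-1.62 ± 0.49, adjusted p = 0.307). DESeq2 did not call Gzmb there (adjusted p = 0.646), nor did edgeR with median-of-ratios scaling (0.0703). At the other 3 conditions edgeR, DESeq2 and limma-voom called 0 members, where 0.0148% (1 nM, 4 h), 0.104% (500 nM, 4 h, of which 0.0816% higher and 0.0223% lower) and 0% (500 nM, 24 h) of genes were called by edgeR. At 500 nM, Gzmb was 1.51-fold higher with IL-15 at 4 h and 0.948 of the IL-2 level at 24 h.

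Against the untreated library, the members called were granzymes with higher levels and Prf1, with a lower level. In the 1 nM, 4 h libraries Prf1 was the only member called, where 6.31% of genes were (2.75% higher, 3.55% lower). In the 1 nM, 24 h libraries it was Gzmc (adjusted p = 0.0462), where 1.65% were (0.861% higher, 0.786% lower). Gzmc was at least 53.7-fold higher than the untreated limit with IL-2 and at least 12.2-fold higher with IL-15, and its call was lost without IL-2 at 1 nM at 4 h (adjusted p = 0.0590) or 24 h (0.106), or without IL-15 at 1 nM for 4 h (0.0577). It was also lost with limma-voom (0.337), with a mean count of at least 50 (0.0540) and with the mean over transcripts (0.0507). At 500 nM for 4 h, Gzma (2.40 ± 0.64, adjusted p = 0.0240), Gzmb (7.11 ± 1.2, adjusted p = 0.00170) and Gzmc (adjusted p = 0.00112) were higher, where 16.4% were called (7.92% higher, 8.47% lower). At 500 nM for 24 h, Gzmb (8.67 ± 1.28, adjusted p = 0.000641), Gzmc (adjusted p = 0.000275) and Gzme (adjusted p = 0.0257) were higher, where 25.2% were (12.8% higher, 12.3% lower). Gzme passed the filter mainly through the 500 nM libraries, so its call here describes the gene and supports nothing further. The untreated library had 0 counts of Gzmc and Gzme, so no fold is given for them beyond the bound, which for Gzme was at least 42.1-fold (IL-2) and 28.5-fold (IL-15).

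Several of these calls turned on a library. Without IL-15 at 500 nM for 4 h, Gzma against untreated was 2.15 (adjusted p = 0.125), and Gzmb was 6.25 with its call kept, while without IL-2 at 500 nM for 4 h Gzmb was 7.77 with its call kept. The Gzme call was lost without IL-2 (adjusted p = 0.148) or IL-15 (0.108) at 500 nM for 24 h. The Gzmc call at 500 nM for 4 h was lost with limma-voom (0.0791). The 4 comparisons share the untreated library and are not independent.

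Genes that act with the granzymes were described from lists. Of 18 genes for loading, processing and inhibiting granule proteases, dose raised 4 and lowered 3, where 7.63% of all genes were higher and 8.47% lower, with a median of 0.13 (all genes -0.03). Nkg7, a membrane protein of cytotoxic granules, rose by 1.89 ± 0.21, and Serpinb9, an inhibitor of granzyme B, by 1.68 ± 0.20. Cst7, a cathepsin inhibitor, rose by 0.71 ± 0.16 and Ctsw, a cathepsin of cytotoxic cells, by 0.61 ± 0.16. For Nkg7 and Cst7, untreated cells (120 and 91.7 CPM) exceeded every 1 nM library (22.7 to 94.8 and 14.8 to 71.3 CPM). Each gene was called lower than untreated at 1 nM for 4 h. Cst7 was also called lower than untreated at 500 nM for 4 h (24.42 and 25.35 CPM). The 500 nM, 24 h difference from untreated was 1.065 ± 0.279 for Nkg7 (log2, adjusted p = 0.0149). For Cst7 it was 0.323 ± 0.246 (adjusted p = 0.378). From 1 to 500 nM, the lysosomal proteins Cd63, Ctsl and Ctsh fell by 1.42 ± 0.33, 1.33 ± 0.36 and 1.22 ± 0.26. Ctsl and Ctsh are also expressed by myeloid cells, whose marker sum was lower at 500 nM, and the part of those cells was not tested. Srgn, the proteoglycan that holds granzymes in the granule (-0.41 ± 0.28, adjusted p = 0.356), and Ctsc, the protease that activates them (0.36 ± 0.18, adjusted p = 0.191), did not pass over both times. At 24 h alone Srgn was called lower at 500 nM. It was at 151 (IL-2) and 163 CPM (IL-15), against 372 and 274 CPM at 1 nM. The level of Serpinb9 was 17.4 CPM in untreated cells. It lay within 20.5 to 29.4 CPM in the 1 nM libraries and within 57.1 to 97.8 CPM in the 500 nM libraries, so the doses did not overlap.

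Of 18 measured genes for granule transport and release, dose raised Stx11, a syntaxin needed for release (1.63 ± 0.18), and Sytl3 (1.35 ± 0.23), and lowered Vamp2 (-0.70 ± 0.18), against the same shares over all genes (7.63% and 8.47%), with a median of 0.06. Rab27a and Unc13d, which bring granules to the membrane, were not called for dose. Of 7 genes of other killing pathways, 4 rose with dose (7.63% of all genes did), with a median of 2.43: Ifng (6.16 ± 0.90), Lta (3.85 ± 0.42), Fasl, the ligand of the death receptor Fas (2.91 ± 0.39), and Tnf (2.43 ± 0.24). Gzmm, a granzyme outside the 10 that lies elsewhere in the genome, was not called for dose but fell over time (-0.95 ± 0.21, adjusted p = 0.0387) and measured 50.3 CPM untreated against 7.59 to 23.6 CPM in treated cells.

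Of 16 regulators of cytotoxic genes, dose raised 5 and lowered 4 (7.63% and 8.47% of all genes). Eomes and Tbx21 (T-bet), the T-box factors of cytotoxic cells, were higher at 500 than at 1 nM by 3.23 ± 0.33 and 2.23 ± 0.31, and Irf4, a factor of activated T cells, by 1.32 ± 0.22. For the first pair the 1 nM level lay below that of untreated cells. Tbx21 was at 122 CPM without cytokine and within 27.0 to 47.7 CPM in the 1 nM libraries. At 500 nM its level was 207 and 235 CPM after 4 h, then 87.7 and 137 CPM after 24 h, where the log2 difference from untreated was -0.15 ± 0.24 (adjusted p = 0.708). The untreated library held 103 CPM of Eomes, the 1 nM libraries held between 35.1 and 51.0 CPM, and Eomes exceeded its untreated level by 1.26 ± 0.28 (log2, adjusted p = 0.0068) at 500 nM for 24 h. Tcf7 and Klf2, which mark naive and memory cells, fell by 2.42 ± 0.18 and 2.00 ± 0.37. Eomes and Tbx21 did not stay at their 4 h level. Eomes went from 499 CPM at 4 h to 238 CPM at 24 h with 500 nM IL-2 and from 683 to 255 CPM with 500 nM IL-15, and both genes were called lower at 24 h than at 4 h at 500 nM, as were 10 of the 16 regulators (12.9% of all genes). Gzmb and Gzmc held their highest levels in those same 24 h libraries. Runx3 lay between 147 and 309 CPM in all libraries and was not called for dose over both times. At 4 h alone it was called higher at 500 nM (309 CPM with IL-2 and 282 CPM with IL-15) than at 1 nM (147 and 178 CPM). At 500 nM it was called lower at 24 h than at 4 h.

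The genes whose level, as log2(CPM + 1), followed each member most closely over the 9 libraries were found among 3519 genes with enough signal and spread. These correlations describe 9 libraries that share depth and design, and no test was made. Gzmb was closest to Ly6a (r = 0.989), the surface antigen also called Sca-1, then Tuba8 (0.982) and Ly6i (0.980). The sum of the other chromosome 14 granzymes was closest to Eif6 (0.992), Psmd12 (0.987) and Eif4a1 (0.985), which act in translation and in the proteasome. Gzma was closest to D14Ertd668e (0.991), Trafd1 (0.990) and Gm6907 (0.987). Trafd1 showed the same peak at 500 nM for 4 h, with 343 CPM (IL-2) and 712 CPM (IL-15) against 67.2 CPM untreated. Gzmk was closest to Apobec1 (0.964), an mRNA-editing deaminase, which measured 2.92 and 3.56 CPM at 500 nM for 24 h and 8.65 to 29.4 CPM in the other libraries. Prf1 was closest to Itgb2 (0.943), the beta chain of the integrin LFA-1, which likewise peaked without cytokine, at 479 CPM. Between members, r was 0.977 for Gzmb and Gzmc, 0.697 for Gzma and Gzmb, 0.255 for Gzmb and Prf1 and -0.146 for Gzmb and Gzmk.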

How the data were processed

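RNA-seq of 9 libraries was analysed. Per the submitters' processing notes, base calling used CASAVA 1.8 and alignment used Bowtie 0.12.4 to mm8. The authors deposited raw read counts for 24373 RefSeq transcripts, and RPKM values that the authors made from the same counts, exon length and a total per library, per the file headers and values. The sources used here do not give strand use or the handling of multi-mapping reads. Where a symbol had several transcripts, that with most reads on average was kept.

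Counts passed edgeR's filterByExpr (minimum 10, total 15), which left 13479 genes. They were scaled by TMM and tested with edgeR 4.0.16 (quasi-likelihood, R 4.3.3), with Benjamini-Hochberg adjustment over all genes and a threshold of 0.05. The fit held cytokine, dose, time and an untreated term (4 residual degrees of freedom). A single interaction left 3, and pairs of matched libraries used all 3 interactions and left 1. Gene levels were compared between genes by RPKM only. Poisson and ratio intervals are exact, at 95%. Each SE is the absolute log2 fold change divided by the square root of the F statistic, not a directly estimated error. On simulated data the dose test called 59 of 97 genes changed 2-fold, 78 of 99 changed 8-fold and 13 unchanged genes, of 13021. The dose by time test called 7 of 98 genes changed 2-fold and 69 of 96 changed 8-fold, and the cytokine by dose test 12 of 98 and 62 of 99. Each changed simulated gene held the tested effect alone, with no other term, so these rates need not hold for the measured genes.

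All 10 members were named, with list genes past the dose threshold or that a result turned on. Up to 3 of the genes most similar to each pattern were named, and neighbours of the granzyme loci but not of Prf1. Some list genes that did not pass are named as well. The members and lists were chosen with earlier results of these data known. Neighbours were taken from RefSeq gene order (GRCm38.p6), since the files hold no start or end. Promoters are RefSeq's (10 of 10 matched). Alternatives were DESeq2 1.42.0, limma-voom (limma 3.58.1), median-of-ratios scaling, other filters, the mean over transcripts, a dose by time term and each library left out.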

Additional observations from a re-analysis of the deposited data

Results flagged for a closer look

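Gzmk was flagged because its response to dose, and to time, differed between groups, and the difference was tested: the dose by time interaction was -4.14 ± 1.13 (log2, SE; edgeR, adjusted p = 0.0405). In the matched libraries the log2 ratio of 500 to 1 nM was 0.28 (IL-2) and 1.85 (IL-15) at 4 h, and -2.92 and -3.18 at 24 h. The log2 ratio of 24 h to 4 h was 0.65 (IL-2) and 1.07 (IL-15) at 1 nM, and -2.55 and -3.97 at 500 nM. The lowest libraries held 15 and 10 counts.

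Gzmb was flagged because the cytokines differed in opposite directions at the 2 times. The log2 ratio of IL-15 to IL-2 was 0.46 at 1 nM and 0.59 at 500 nM after 4 h, and -3.50 at 1 nM and -0.08 at 500 nM after 24 h. The cytokine by time interaction was -2.65 ± 1.00 (edgeR, adjusted p = 1), so the difference did not pass the threshold. With a single library per condition, no group was large enough for a check of outlying samples.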

How the results depend on the processing

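Of 162 tests of a member in a comparison, 30 were called, and none changed direction under any alternative where it was called. DESeq2 ended 3 calls and added 12, limma-voom ended 6 and added 4, the mean over transcripts ended 1, median-of-ratios scaling and a mean count of at least 50 each ended 1 and added 1, and no filter and a dose by time term each added 2. The number of members called for dose was 5, against 3 with a mean count of at least 50, which removes members, and 2 to 5 with a library left out. For 24 h against 4 h it was 1, against 3 with DESeq2, 2 with limma-voom and 2 with a dose by time term, and 0 to 2 with a library left out. For dose by time it was 1, against 0 with limma-voom and 0 to 1. For time at 1 nM it was 2, against 0 with limma-voom and 0 to 2, and for time at 500 nM 2, against 1 with limma-voom and 0 to 4. For 1 nM for 24 h against untreated it was 1, against 3 with DESeq2, 0 with limma-voom, 0 with the mean over transcripts, 2 with median-of-ratios scaling and 3 with no filter, and 0 to 2 with a library left out. Dose at 4 h and at 24 h, and 500 nM against untreated at 4 h and at 24 h, each gave 4 calls, and 2 to 4 with a library left out. For the cytokine pair at 1 nM for 24 h it was 1, against 0 with DESeq2 and with median-of-ratios scaling. The cause of these changes was not tested. Over all genes, DESeq2 called 3465 for dose (edgeR 2170), 2095 for time (715), 1792 for dose by time (1188), 827 for time at 1 nM (390), 1350 for 1 nM for 4 h (850) and 712 for 1 nM for 24 h against untreated (222). Limma-voom called 1175 for time, and a dose by time term gave 4325 for dose and 3045 for time. For IL-15 against IL-2 DESeq2 called 2 (0). For the cytokine pair at 500 nM for 4 h edgeR called 14, DESeq2 37, limma-voom and median-of-ratios scaling 0, a mean count of at least 50 35 and the mean over transcripts 1. At 1 nM for 24 h edgeR called 59, limma-voom 35 and median-of-ratios scaling 19, and at 1 nM for 4 h these were 2, 0 and 0. With a library left out, the dose count ran from 927 to 2435, time from 82 to 1328 and dose by time from 356 to 1159, each lowest without IL-15 at 500 nM for 24 h. Other lowest counts were 567 of 1355 for dose at 4 h (without IL-15, 500 nM, 4 h), 2086 of 4207 for dose at 24 h and 1565 of 3539 for time at 500 nM (both without IL-2, 500 nM, 24 h), and 73 of 390 for time at 1 nM (without IL-2, 1 nM, 4 h). Against untreated they were 283 of 850 and 93 of 222 for 1 nM at 4 h and 24 h (without the IL-2 library of that condition), and 1070 of 2209 and 1800 of 3391 for 500 nM (without its IL-15 library). For the cytokine pairs, leaving out the untreated library kept the Gzmb call (adjusted p = 0.00393) and added none, and leaving out a treated library gives no test, since no residual degrees of freedom remain. No paired analysis was possible because each condition has a single library and the labels carry no replicate numbers. Depth limits Gzmd, Gzmf and Gzmn, at 119, 38 and 11 counts in all.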
